A study of Mus musculus with 10 samples.

Results

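The genes described here are 10 transcription factors of gonocytes and progenitor spermatogonia, *Pou5f1*, *Utf1*, *Sall4*, *Tfap2c*, *Sox3*, *Zbtb16*, *Foxo1*, *Neurog3*, *Prdm1* and *Prdm14*. They were chosen by name, for their known roles in the germline, out of the 54232 genes of the count table. Their RNA was measured by bulk RNA-seq in whole testes at P4 (postnatal day 4) of B6D2F1 mice, in 5 libraries labelled *Dis3* WT (control) and 5 labelled *Dis3* KO (*Dis3* cKO). The controls were siblings of the *Dis3* cKO mice, and whether they carried a floxed allele or the Cre transgene is not given in the sources used here. The *Dis3* cKO mice carried 1 floxed and 1 deleted *Dis3* allele (*Dis3* F/-) and *Ddx4*-Cre, a transgene that is active in male germ cells from fetal life on. The somatic cells of these testes therefore kept the floxed allele and also carried the deleted one. Both testes of a mouse were pooled for its library. The comparison asks how loss of DIS3, a ribonuclease of the RNA exosome, changes the transcripts of these factors.

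Gonocytes are the fetal and newborn male germ cells that descend from primordial germ cells, and in the days after birth they become undifferentiated spermatogonia. Primordial germ cells depend on PRDM1, PRDM14 and TFAP2C for their specification and keep a pluripotency network that includes POU5F1, UTF1 and SALL4. After birth ZBTB16 and FOXO1 serve the upkeep of undifferentiated spermatogonia, whereas SOX3 and NEUROG3 mark and act in the progenitors that are about to differentiate.

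*Dis3* itself had 4115 to 5161 normalized counts in control and 1362 to 1709 in *Dis3* cKO libraries, so the labels and the targeted gene went the same way. Normalized counts are reads rescaled to libraries of equal effective size, with edgeR's TMM (trimmed mean of M values) factors. The libraries held 28538849 to 41104912 gene counts. In both genotypes replicates 1 to 3 clustered apart from replicates 4 and 5, a division that no label names, so members are also given within each set of replicates. Of the 10 members, 9 passed the filter on low counts and were tested among 20043 genes. In whole testes, fewer cells of a type and less RNA per cell cannot be told apart.

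*Sox3* and *Pou5f1* fell in *Dis3* cKO testes. These were 2 of the 9 members tested, beside a background of 3.48% of all tested genes called lower at an adjusted p under 0.05 (edgeR's quasi-likelihood test, Benjamini-Hochberg). At an unadjusted p under 0.05, 3 members were lower, beside 2432 of the 20043 genes tested. DESeq2 called 3 members lower, beside 931 genes. No member was called higher, by edgeR (0 at an unadjusted p under 0.05) or by DESeq2, beside a background of 4.42%. Over all genes, 2361 were higher at the unadjusted threshold and 1307 in DESeq2. In 863 genes, 4.31% of those tested, every *Dis3* cKO library lay below every control library, and *Sox3* and *Pou5f1* were the 2 members of this kind.

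**Figure D1:**
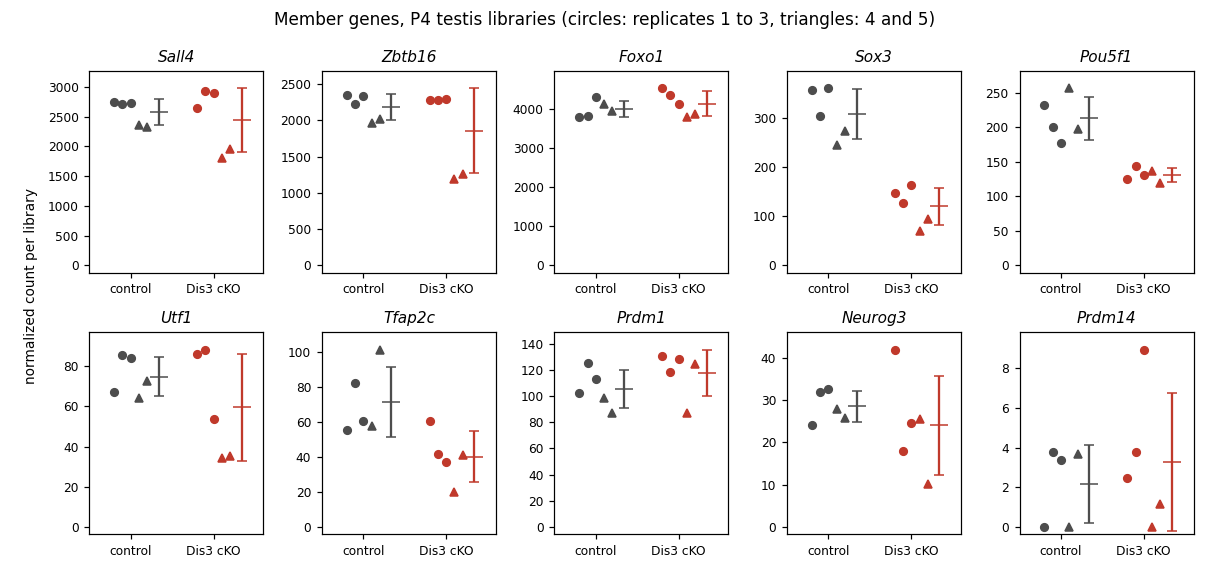
Normalized counts of the 10 members (vertical axes, each from about 0) in each control (grey) and *Dis3* cKO (red) library, in which circles stand for replicates 1 to 3 and triangles for 4 and 5. Horizontal marks are group means and bars the SD (n = 5). *Sox3* and *Pou5f1* are separate between the groups, and *Zbtb16* and *Sall4* are low in *Dis3* cKO replicates 4 and 5.

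Among members of the pluripotency network, *Pou5f1* (ENSMUSG00000024406.16, chromosome 17 from 35506018 to 35510772, GRCm38) encodes OCT4, the POU-domain factor of pluripotent and early germ cells. Its normalized counts were 232, 201, 177, 256 and 198 in control replicates 1 to 5 and 125, 143, 131, 136 and 119 in *Dis3* cKO replicates 1 to 5. The highest *Dis3* cKO library lay below the lowest control library. The group means were 213 ± 31.1 and 131 ± 9.58 (SD, n = 5 each), and the fold was -0.70 on the log2 scale (adjusted p = 0.00742 in edgeR, standard error 0.13). The level in *Dis3* cKO was 61.6% of that in control, with a 95% interval from 50.5% to 75.2%. It was lower within replicates 1 to 3 (-0.61, adjusted p = 0.0364) and within replicates 4 and 5 (-0.82, adjusted p = 0.0074). The exons of *Pou5f1* share 317 bases (14.1%) with *Gm19553* on the opposite strand, which had 0 counts in every library.

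*Utf1* (ENSMUSG00000047751.9, chromosome 7 from 139943789 to 139945112) encodes a chromatin-associated factor of pluripotent cells that stays on in early spermatogonia. Its normalized counts were 67.1, 85.8, 84.0, 64.2 and 72.6 in control and 86.4, 88.3, 53.7, 34.3 and 35.1 in *Dis3* cKO replicates 1 to 5. *Dis3* cKO replicates 1 and 2 exceeded every control, and replicates 3 to 5 lay below every control. The spread in *Dis3* cKO (SD 26.5, against 9.76 in control) was wider than the difference of the means, and the log2 fold change of -0.33 (95% interval -0.91 to 0.26) did not pass (adjusted p = 0.518).

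*Sall4* (ENSMUSG00000027547.17, chromosome 2 from 168748332 to 168767943, minus strand) encodes a zinc finger factor that recruits the NuRD deacetylase complex. It had 2753, 2714, 2730.1, 2353 and 2331 normalized counts in control and 2640.2, 2928, 2894, 1801 and 1959 in *Dis3* cKO. The groups overlapped, and in both of them replicates 4 and 5 were the lowest. Its log2 fold change of -0.08 did not pass (95% interval -0.35 to 0.20, adjusted p = 0.776). It was 0.05 within replicates 1 to 3 (adjusted p = 0.748) and -0.31 within replicates 4 and 5 (adjusted p = 0.006).

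The exons of *Sall4* share 526 bases with the antisense gene *Gm14261* (chromosome 2 from 168766143 to 168768108), which runs across the start of *Sall4*. *Gm14261* had 0 to 5 raw counts in control and 5 to 17 in *Dis3* cKO libraries, and after normalization every *Dis3* cKO library lay above every control library. It was below the filter on low counts and was not tested. It was named after its values were seen.

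The factors of primordial germ cell specification were low in these testes. *Tfap2c* (ENSMUSG00000028640.11, chromosome 2 from 172549593 to 172558622), an AP-2 factor, had 55.0, 82.0, 60.5, 57.5 and 101 normalized counts in control and 60.5, 41.8, 36.9, 19.9 and 40.8 in *Dis3* cKO. In 4 of the 5 *Dis3* cKO libraries it lay below every control, and *Dis3* cKO replicate 1 lay within the control range. The log2 fold change of -0.83 (standard error 0.28, 95% interval -1.43 to -0.24) did not pass in edgeR (adjusted p = 0.0821), whereas DESeq2 gave -0.82 with an adjusted p of 0.0472. Over all alternatives the adjusted p ranged from 0.0192 to 0.305.

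*Prdm1* (ENSMUSG00000038151.13, chromosome 10 from 44437177 to 44528501, minus strand) encodes BLIMP1, the repressor that starts germ cell specification. It had 103, 125, 113, 98.7 and 87.3 normalized counts in control and 131, 119, 129, 87.5 and 125 in *Dis3* cKO. The groups overlapped, with a log2 fold change of 0.16 (95% interval -0.19 to 0.51, adjusted p = 0.601). *Prdm14* (ENSMUSG00000042414.7, chromosome 1 from 13113457 to 13127163, minus strand), a second PR-domain factor of primordial germ cells, had raw counts of 0, 4, 4, 0 and 4 in control and of 2, 4, 8, 0 and 1 in *Dis3* cKO. At 12 and 15 reads in all, a difference in *Prdm14* was not detectable at this depth.

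Among factors of progenitor and undifferentiated spermatogonia, *Sox3* (ENSMUSG00000045179.9, chromosome X from 60891366 to 60893430, minus strand), an HMG-box factor of progenitors, changed by the most of the members. Its normalized counts were 357, 304, 359, 244 and 274 in control and 147, 126, 163, 69.8 and 94.0 in *Dis3* cKO replicates 1 to 5. Replicates 4 and 5 were the lowest of their group in both genotypes, and the groups did not overlap. The level in *Dis3* cKO was 39.0% of that in control (95% interval 28.7% to 52.9%), or -1.36 on the log2 scale (adjusted p = 0.00222, standard error 0.21). Replicates 1 to 3 alone gave -1.23 (adjusted p = 5.56e-04) and replicates 4 and 5 alone -1.65 (adjusted p = 1.53e-05). The study showed *Sox3* and *Zbtb16* among genes it selected on these samples, so their choice is not independent of the data. It also reported lower *Sox3* by quantitative RT-PCR. By immunoblot it found less ZBTB16 protein in *Dis3* cKO testes at a later postnatal age.

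*Neurog3* (ENSMUSG00000044312.4, chromosome 10 from 62133090 to 62134763), the basic helix-loop-helix factor of progenitors, had few reads, 26, 34, 39, 29 and 28 raw counts in control and 34, 19, 22, 23 and 9 in *Dis3* cKO. After normalization *Dis3* cKO replicate 1 (42.0) was above every control and replicate 5 (10.2) was the lowest of all. Its log2 fold change of -0.25 had a wide interval (-0.96 to 0.45, adjusted p = 0.70). Its exons share 273 bases (16.3%) with *Fam241b* on the opposite strand, which was not called either (-0.45, adjusted p = 0.279).

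*Zbtb16* (ENSMUSG00000066687.5, chromosome 9 from 48654297 to 48836222, minus strand) encodes PLZF, the repressor that marks undifferentiated spermatogonia. Its normalized counts were 2346, 2230.2, 2344, 1965 and 2021 in control and 2277, 2281, 2297, 1193 and 1261 in *Dis3* cKO. *Dis3* cKO replicates 1 to 3 lay within the control range, and replicates 4 and 5 lay below every control library. Over all libraries the log2 fold change of -0.23 (95% interval -0.60 to 0.14) did not pass (adjusted p = 0.472). It was -0.01 within replicates 1 to 3 (adjusted p = 0.929) and -0.69 within replicates 4 and 5 (adjusted p = 4.76e-06).

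*Foxo1* (ENSMUSG00000044167.6, chromosome 3 from 52268336 to 52353221) encodes a forkhead factor that AKT keeps out of the nucleus. It had 3807, 3826, 4307, 4138 and 3961 normalized counts in control and 4530.0, 4374, 4127, 3797 and 3871 in *Dis3* cKO. *Dis3* cKO replicates 1 and 2 lay above and replicate 4 just below the control range, so the groups overlapped with a wider spread in *Dis3* cKO. Its log2 fold change of 0.05 had the narrowest 95% interval of the members, -0.10 to 0.19 (adjusted p = 0.734).

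The difference between the sets of replicates was tested for all genes by the interaction of group with set. It passed for 1 of the 9 members, *Zbtb16* (-0.69, standard error 0.10, adjusted p = 4.07e-04), beside 4.58% of all genes in either direction. For *Sall4* it was -0.36 (adjusted p = 0.0569) and for *Utf1* -0.92 (adjusted p = 0.246). What separates the sets of replicates is not given in the sources used here, and its part in these values was not tested.

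**Figure D2:**
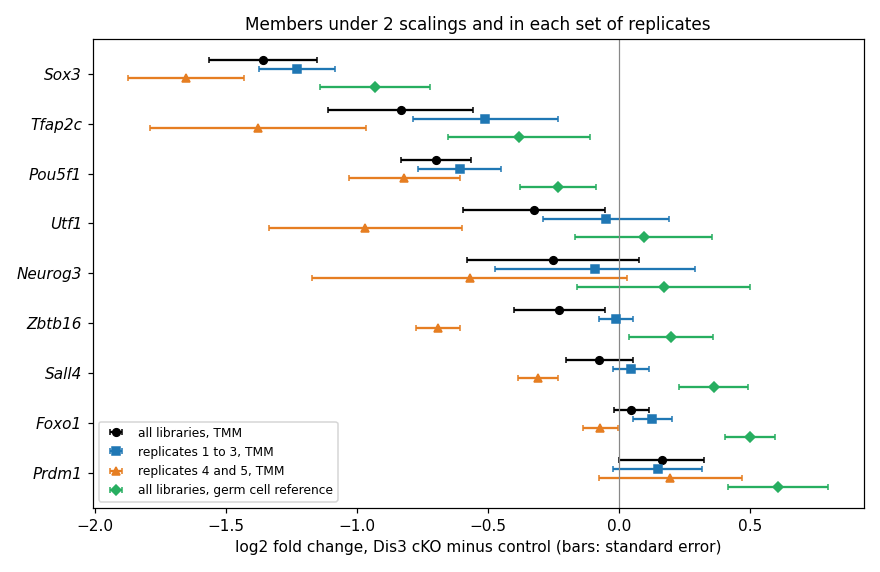
Log2 fold changes of *Dis3* cKO minus control (horizontal axis, bars for the standard error) of the 9 members tested (vertical axis). Black circles are from all libraries, blue squares from replicates 1 to 3 and orange triangles from replicates 4 and 5, all with TMM. Green diamonds are from all libraries with the germ cell reference as the scale. *Zbtb16* lay at -0.01 (blue) and -0.69 (orange), whereas *Sox3* was -1.23 and -1.65.

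Levels of different genes were compared as RPKM, reads per kilobase of exon scaled to sequencing depth, computed here from the normalized counts. In control testes *Sall4* (13.4 ± 1.12, SD, n = 5), *Foxo1* (13.3 ± 0.71) and *Zbtb16* (11.9 ± 0.977) formed the top of the order, and their ranges over libraries overlapped. *Sox3* (4.30 ± 0.707), *Pou5f1* (2.73 ± 0.399) and *Utf1* (1.76 ± 0.229) followed, each with all libraries below those of the gene before it. *Tfap2c* (0.558), *Prdm1* (0.545) and *Neurog3* (0.491) had overlapping ranges, and *Prdm14* (0.0243) was the lowest. In *Dis3* cKO testes *Pou5f1* (1.68 ± 0.123), *Sox3* (1.68 ± 0.533) and *Utf1* (1.40 ± 0.623) overlapped, so the steps between them seen in control were no longer apart.

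The genes whose log2 CPM (counts scaled to library size) followed *Sox3* most closely over the 10 libraries, among 14744 genes averaging 50 or more normalized counts, were *H2ac1* (Pearson's r = 0.982) and *Mrpl28* (r = 0.968). For *Pou5f1* they were *Etf1* (r = 0.984) and *Rps3a1* (r = 0.970). *H2ac1* is a histone gene, *Mrpl28* a mitochondrial ribosomal protein gene, *Etf1* a translation termination factor gene and *Rps3a1* a cytosolic ribosomal protein gene. All 4 were called lower, with log2 fold changes of -0.86, -0.54, -0.20 and -0.32. These correlations include the difference between the groups and are given as a description.

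The sum of a set of genes that germ cells of these stages share was lower in *Dis3* cKO. This germ cell reference of 12 genes (*Ddx4*, *Dazl*, *Dnd1*, *Mael*, *Rnf17*, *Piwil2*, *Tdrd1*, *Tdrd9*, *Asz1*, *Mov10l1*, *Tex15* and *Gtsf1*), most of them of the piRNA pathway or RNA-binding proteins of germ cells, summed to between 27413 and 33919.5 normalized counts in control and to between 19902 and 24819 in *Dis3* cKO. Every *Dis3* cKO library lay below every control (exact permutation test, two-sided, p = 0.00794, the smallest that 5 against 5 allow). Of these genes 8 were called lower, beside 3.48% of all genes, and none higher (edgeR, 0 at an unadjusted p under 0.05, and 0 higher in DESeq2), with a median log2 fold change of -0.55, against -0.01 over all genes. *Ddx4*, *Dnd1*, *Tdrd1* and *Tex15* did not pass. *Dazl* (-0.67, adjusted p = 0.00292), *Mael* (-0.76, adjusted p = 0.00326) and *Rnf17* (-0.63, adjusted p = 0.00337) had the lowest adjusted p, and all of them are in the list that the study selected on these samples. The reference was fixed with earlier results of these data known, so the permutation p of its sum is not independent of them. The mean sum was 31046.8 in control and 22565.9 in *Dis3* cKO. Of it *Dazl* made up 8398 and 5266.5 counts and *Mael* 5269 and 3112. The sum without *Dazl*, *Mael* and *Rnf17* was not compared.

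With the summed counts of this reference as the library size, *Sox3* was the only member called lower, beside 0.369% of all genes. It had 11.7, 10.2, 13.1, 7.21 and 8.18 counts per 1000 reference counts in control and 5.92, 5.37, 7.08, 3.24 and 4.72 in *Dis3* cKO. All *Dis3* cKO values lay below all control values (-0.93 on the log2 scale, standard error 0.21, adjusted p = 0.00213). *Pou5f1* was -0.23 (standard error 0.15, adjusted p = 0.178) on this scale, with 7.59, 6.72, 6.46, 7.54 and 5.90 against 5.02, 6.10, 5.67, 6.33 and 5.97 counts per 1000. Its groups overlapped. With *Dazl*, *Mael* and *Rnf17* left out of the reference, *Pou5f1* was -0.42 and passed (adjusted p = 0.049), and with *Ddx4* alone it was -0.44 and did not (adjusted p = 0.396).

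Higher on the reference scale were *Foxo1* (0.50, adjusted p = 7.07e-04), *Prdm1* (0.61, adjusted p = 0.0144) and *Sall4* (0.36, adjusted p = 0.0302), 3 of 9 members beside 54.6% of all genes. This scale moved the median of all genes from -0.01 to 0.45, and it called 10945 genes higher and 74 lower, where TMM called 885 and 698. Against that median *Foxo1* and *Prdm1* lay slightly above and *Sall4* below. *Foxo1* had 124, 128, 157, 122 and 118 counts per 1000 reference counts in control and 183, 186, 179, 176 and 194 in *Dis3* cKO, with no overlap. With *Ddx4* alone as the reference, itself not called (-0.26, adjusted p = 0.323), *Foxo1*, *Prdm1* and *Sall4* did not pass (adjusted p = 0.522, 0.528 and 0.821), and *Sox3* did (-1.20, adjusted p = 0.0042).

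Other factors of the same stages are given by their counts beside 3.48% lower and 4.42% higher over all genes. Their lists were chosen for known roles, with earlier results of these data known. Of 21 stem cell and undifferentiated spermatogonia regulators tested, 1 was lower and none higher (edgeR, with 2 higher at an unadjusted p under 0.05 and 2 in DESeq2), and the median log2 fold change was 0.06. DESeq2 also called 2 of them lower. Replicates 1 to 3 alone called 3 lower and 5 higher, beside 557 lower and 976 higher over all genes. Replicates 4 and 5 alone called 4 lower and 0 higher, beside 2360 lower and 2361 higher over all genes. The gene called by edgeR over all libraries was *Taf4b*, a TFIID subunit of germ cells (-0.46, adjusted p = 0.0058). Of 11 differentiating spermatogonia regulators, 6 were lower and none higher (edgeR, with 1 higher at an unadjusted p under 0.05 and 0 in DESeq2), with a median of -0.68. They included *Sohlh2*, a basic helix-loop-helix factor that drives differentiation (-0.68, adjusted p = 8.73e-04), *Stra8*, a retinoic acid-induced gene (-0.89, adjusted p = 0.00192), and *Dmrtb1*, a DM-domain factor of the mitosis to meiosis switch (-1.17, adjusted p = 0.00209).

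In the pluripotency and germ cell specification network 2 of 16 tested genes were lower and none higher (edgeR, with 2 higher at an unadjusted p under 0.05 and 0 in DESeq2). They were *Nr5a2*, a nuclear receptor (-0.37, adjusted p = 0.0209), and *Lin28b*, an RNA-binding inhibitor of let-7 maturation (-0.57, adjusted p = 0.0219). This count fell to 0 without control replicate 1, *Dis3* cKO replicate 2 or *Dis3* cKO replicate 5 and within replicates 1 to 3, and to 1 without control replicate 2, 4 or 5. Of 22 paralogs of the members, 1 was lower, *Prdm4* (-0.27, adjusted p = 0.0198), and 2 were higher, *Foxo6* (0.47, adjusted p = 0.0286) and *Sall2* (0.30, adjusted p = 0.0309). The number higher was 0 without control replicate 2, 4 or 5 or *Dis3* cKO replicate 2 or 3, 1 without control replicate 1 or *Dis3* cKO replicate 1 or 5, and 5 without control replicate 3. None was lower without control replicate 2 or 5 or *Dis3* cKO replicate 2.

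Of 18 chromatin partners of the members, 3 were higher and none lower (edgeR, with 4 lower at an unadjusted p under 0.05 and 0 in DESeq2). They included *Gatad2b*, a NuRD subunit (0.34, adjusted p = 0.00701), and *Ncor1*, a corepressor (0.30, adjusted p = 0.0203). The number higher was 1 without control replicate 1 or 2, 2 without control replicate 4 or 5 or *Dis3* cKO replicate 1, 2, 3 or 5, and 5 without control replicate 3. With the replicate sets as a term 3 were lower, and within replicates 4 and 5 alone 5 were, beside 1669 and 2360 of all genes. Of 15 genes of the PI3K and AKT pathway upstream of FOXO1, 1 was lower, *Pik3r2* (-0.28, adjusted p = 0.0193), a regulatory subunit of PI3K, and none higher (edgeR, with 2 higher at an unadjusted p under 0.05 and 2 in DESeq2). Without control replicate 3, 2 were higher, and within replicates 1 to 3 none was lower.

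**Figure D3:**
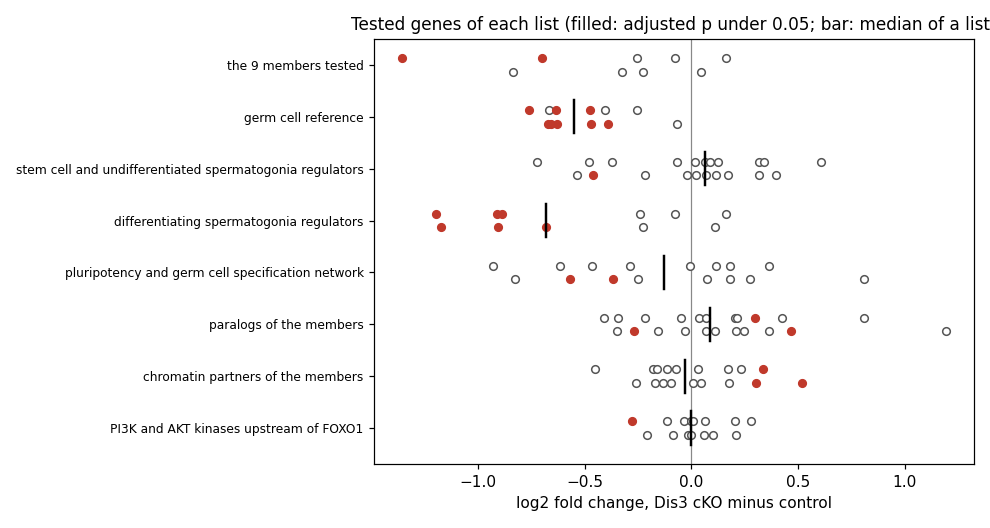
Log2 fold changes of *Dis3* cKO minus control (horizontal axis) of the 9 members tested and of the tested genes of each list (vertical axis). Filled red circles passed an adjusted p under 0.05, open circles did not, and black bars are medians of the lists. The bar lies at -0.68 for differentiating spermatogonia regulators and at 0.06 for stem cell and undifferentiated spermatogonia regulators.

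Markers of the other cells of the testis were present in every group, and none was at 0 in every library. Summed over each list, Sertoli, Leydig, myoid, stromal, endothelial, macrophage and erythroid markers overlapped between the groups. The endothelial sum was nevertheless higher on average in *Dis3* cKO, with 14893 to 17463 normalized counts in control and 15756 to 21005 in *Dis3* cKO (exact permutation test, two-sided, p = 0.0159, unadjusted over 7 lists). Of the tested markers, 1 of 7 Leydig markers was called lower, and 1 of 7 myoid and 1 of 8 endothelial markers were called higher. The Leydig markers went both ways, with 2 lower and 2 higher at an unadjusted p under 0.05 (edgeR). DESeq2 called 1 Leydig marker lower and 2 higher. None of 10 Sertoli, 9 stromal, 8 macrophage and 5 erythroid markers was called (edgeR, with 2, 4, 2 and 0 higher at an unadjusted p under 0.05 and 0, 1, 0 and 0 in DESeq2). Median log2 fold changes were 0.12 for Sertoli, 0.02 for Leydig, 0.04 for myoid and 0.22 for stromal markers. They were 0.19 for endothelial, 0.11 for macrophage and 0.28 for erythroid markers, against -0.01 over all genes. Stromal sums spread from 243789 to 334568 normalized counts in control and from 244283 to 466607 in *Dis3* cKO. Their part in the members' values was not tested.

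The upstream region of a gene was read from PROMPTs (promoter upstream transcripts). These are short-lived RNAs that start near promoters and are broken down by the nuclear RNA exosome. They can run in either direction, mostly antisense to the gene. The authors counted sense, antisense and unstranded reads in windows of 3000 bases ahead of 30166 genes. Only the antisense counts are described here. The table has windows for *Pou5f1*, *Tfap2c*, *Zbtb16*, *Foxo1*, *Prdm1* and *Prdm14*. For *Pou5f1* and *Foxo1*, whose windows rose on the scale of the gene counts, a RefSeq start (GRCm38.p6) lay at the inner edge of the window. The 250 bases ahead of that start are shown on the gene's strand. Another RefSeq start of *Pou5f1*, at 35508807, lay inside the gene and away from the window, and its sequence is not shown. The last 14 bases of the *Pou5f1* sequence, with its CCAAT box, lie past the window, inside the gene as the count table places it. They come from the RefSeq promoter table, which held 5 of the 10 members. Capitals mark a GC box (GGGCGG or its reverse complement CCGCCC) or a CCAAT box (CCAAT or ATTGG).
*Pou5f1*, chr17:35505782-35506031, plus strand: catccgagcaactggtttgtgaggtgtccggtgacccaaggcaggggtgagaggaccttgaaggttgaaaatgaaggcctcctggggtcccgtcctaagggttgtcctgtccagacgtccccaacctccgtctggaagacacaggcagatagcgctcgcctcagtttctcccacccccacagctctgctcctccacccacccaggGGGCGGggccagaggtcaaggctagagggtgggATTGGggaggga
*Foxo1*, chr3:52268087-52268336, plus strand: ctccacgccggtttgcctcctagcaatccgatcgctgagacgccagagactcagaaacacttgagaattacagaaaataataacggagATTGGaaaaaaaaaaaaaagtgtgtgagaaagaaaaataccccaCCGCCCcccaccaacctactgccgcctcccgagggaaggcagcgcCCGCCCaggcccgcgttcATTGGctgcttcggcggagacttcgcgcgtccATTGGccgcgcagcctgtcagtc
The *Pou5f1* sequence held 1 GC box and 1 CCAAT box and the *Foxo1* sequence 2 and 3, and neither held TATAAA on either strand. Of 32851 promoter sequences of this length, 32.7% held the GC box, 33.8% the CCAAT box and 12.4% TATAAA. *Pou5f1* had 8 CG dinucleotides and *Foxo1* 20, against a median of 6. On the antisense strand neither held AATAAA, the polyadenylation signal, which 9.49% of the sequences held. These matches describe the letters only.

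Antisense reads ahead of *Zbtb16* were the most abundant of the members (chromosome 9 from 48836223 to 48839222). The window had 28, 23, 21, 23 and 15 raw counts in control and 233, 220, 220, 109 and 139 in *Dis3* cKO. Every *Dis3* cKO library was far above every control, and *Dis3* cKO replicates 4 and 5, the libraries with the least *Zbtb16* RNA, had the lowest counts of their group. On the log2 scale the increase was 3.33 (95% interval 2.79 to 3.86, adjusted p = 5.29e-30). Per kilobase, the window had 1.63% of the reads of the *Zbtb16* exons in control and 19.3% in *Dis3* cKO. The increase passed within replicates 1 to 3 (3.50, adjusted p = 1.23e-21) and within replicates 4 and 5 (2.95, adjusted p = 7.56e-08).

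The *Pou5f1* window (chromosome 17 from 35503018 to 35506017), printed in part above, had 0, 0, 1, 0 and 4 raw counts in control and 16, 19, 6, 7 and 21 in *Dis3* cKO. The groups did not overlap. The fitted increase was 3.89 on the log2 scale (adjusted p = 1.48e-04, standard error 0.87), which rests on 5 control reads in all and depends on them. It was 5.15 within replicates 1 to 3 (adjusted p = 0.00116) and 2.999 within replicates 4 and 5, where it did not pass (adjusted p = 0.187). The transcript of *Pou5f1* and its antisense window moved in opposite directions.

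The *Foxo1* window (chromosome 3 from 52265336 to 52268335) had 6, 4, 5, 7 and 11 raw counts in control and 29, 16, 14, 13 and 30 in *Dis3* cKO. All *Dis3* cKO libraries exceeded all control libraries. The increase was 1.90 on the log2 scale (adjusted p = 0.0050, standard error 0.54), with 2.26 within replicates 1 to 3 (adjusted p = 0.0115) and 1.51 within replicates 4 and 5 (adjusted p = 0.288). The *Foxo1* transcript itself did not pass in either set of replicates.

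The *Tfap2c* window had 5, 6, 4, 7 and 0 raw counts in control and 6, 8, 5, 5 and 6 in *Dis3* cKO (log2 fold change 0.68, 95% interval -1.12 to 2.48, adjusted p = 0.811). *Prdm1* (15 reads in control and 5 in *Dis3* cKO) and *Prdm14* (3 and 3) had windows below the minimum mean of 3 counts and were not tested. That minimum was on the mean over all libraries. The *Pou5f1* window, with 5 reads in control and 69 in *Dis3* cKO, passed it only through *Dis3* cKO. Thus 3 of 4 tested windows of members were higher, beside 13.6% of 12345 windows tested, and in 11.1% of windows the *Dis3* cKO libraries were all above the control libraries. None was lower (edgeR, 0 at an unadjusted p under 0.05, and 0 in DESeq2), beside 0.0486%. Without the minimum, 3 member windows were called higher, beside 1425 of all windows.

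With TMM factors taken from the window counts, the median of all windows moved from 0.64 to -0.07, and the calls from 1673 higher and 6 lower to 652 and 115. On that scale the *Zbtb16* (2.62, adjusted p = 8.27e-17) and *Pou5f1* (3.15, adjusted p = 0.00947) windows stayed higher, and the *Foxo1* window did not pass (1.12, adjusted p = 0.275). No other gene in the table lies within 10000 bases of the *Zbtb16* window. Within that distance of the *Pou5f1* window, *Tcf19* on the opposite strand was higher (0.29, adjusted p = 0.0363). *Gm20402*, on the opposite strand with its nearer end 100 bases from the *Foxo1* window, had 0 to 3 raw counts in control and 0 to 7 in *Dis3* cKO.

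**Figure D4:**
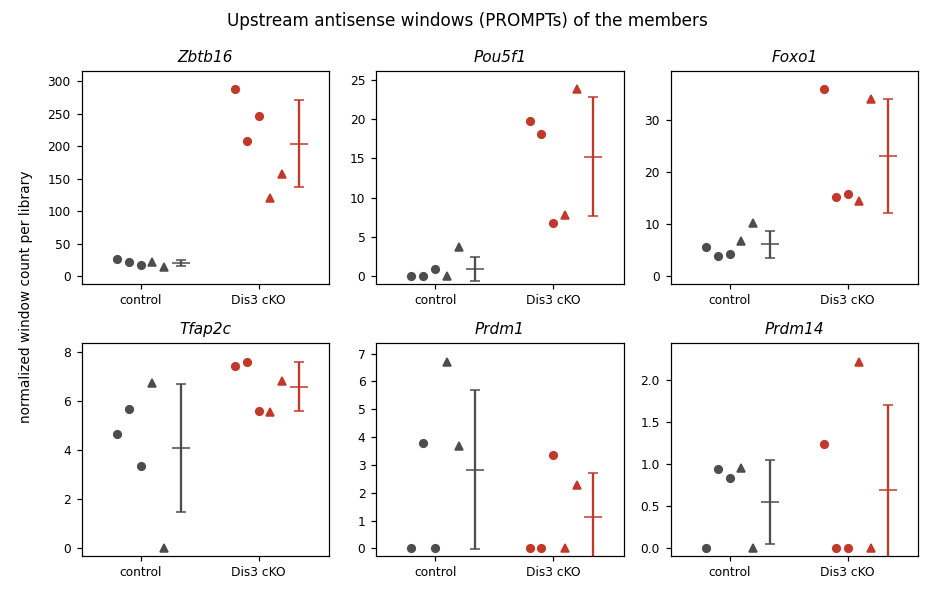
Normalized counts of antisense reads in the 3000-base upstream windows of 6 members (vertical axes) in each control (grey) and *Dis3* cKO (red) library, in which circles stand for replicates 1 to 3 and triangles for 4 and 5. Horizontal marks are group means and bars the SD (n = 5). The *Zbtb16*, *Pou5f1* and *Foxo1* windows are separate between the groups, and the *Tfap2c*, *Prdm1* and *Prdm14* windows overlap.

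Of the windows of related genes, beside 13.6% of all tested windows, those called higher were 7 of 15 tested stem cell and undifferentiated spermatogonia regulators, 3 of 5 differentiating spermatogonia regulators, 2 of 7 genes of the pluripotency network, 5 of 8 paralogs, 4 of 12 chromatin partners, 3 of 12 PI3K and AKT genes and 4 of 8 reference genes. Of 7 Sertoli, 2 Leydig, 4 myoid, 5 stromal, 2 endothelial and 3 macrophage marker genes with a tested window, none was higher (edgeR, 0 at an unadjusted p under 0.05, and 0 in DESeq2), beside the same 13.6%. The largest increase among the germ cell reference was that of *Ddx4* (5.30, adjusted p = 1.26e-29), whose transcript was -0.26. The normalized control mean of the *Ddx4* window lay under 3, so it passed the minimum only through *Dis3* cKO. The size of its increase rests on few control reads. Other windows called higher in the reference, stem cell, differentiating, paralog and PI3K and AKT lists also had normalized control means under 3. The 13.6% was taken after the same minimum.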

How the data were processed

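RNA of P4 testes was sequenced in 5 control and 5 *Dis3* cKO libraries, primed with random and poly(T) oligonucleotides, strand selected and depleted of ribosomal RNA. Per the labels and methods, reads went through cutadapt, HISAT2 and featureCounts in the authors' hands. The deposited tables hold the authors' raw counts per gene (sense) and per upstream window (antisense). Their headers name featureCounts 1.6.4 and GENCODE M18, and positions are those of GRCm38, whereas the methods name a later build. Symbols came from GENCODE M39 by gene ID.

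Genes were kept by filterByExpr (min.count 10, min.total.count 15), TMM normalized and tested with edgeR 4.0.16 (quasi-likelihood, two-sided, adjusted p under 0.05) in R 4.3.3. DESeq2 1.42.0 was an alternative. Windows with a mean of at least 3 counts were tested with the library sizes and TMM factors of the genes. Single values were compared by exact permutation. The scripts were tested on data simulated with few changes. There the gene test recovered 31.3%, 74.6% and 90.9% of log2 changes of 0.5, 1 and 2. The window test recovered 0%, 0% and 22.7% of them, so a window that did not pass may still differ. The members and lists were chosen with earlier results of these data known. Named besides the members are up to 3 called genes a list, by lowest adjusted p, and the 2 genes most like each called member. One gene that this rule takes is not reported here. *Gm14261*, the neighbours of windows and *Ddx4* were named after their values were seen. P-values of the main fits and of the permutation tests measure the spread between mice, which includes the difference between the sets of replicates.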

Additional observations from a re-analysis of the deposited data

Results flagged for a closer look

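The normalized count of *Prdm1* in *Dis3* cKO replicate 4 (87.5) stood apart from the other 4 *Dis3* cKO libraries (Dixon's test, gap over range 0.72, critical value 0.71).

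The normalized count of the *Pou5f1* window in control replicate 5 (3.68, from 4 reads) stood apart from the other 4 controls (gap over range 0.772). With 30 groups examined, chance alone flags about 1 in 20.

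The log2 fold change of *Zbtb16* was lower in replicates 4 and 5 than in replicates 1 to 3 by 0.69 (-0.69 by the interaction test in edgeR, adjusted p = 4.07e-04). Both *Dis3* cKO libraries of replicates 4 and 5 lay below every control.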

How the results depend on the processing

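The calls of *Sox3* (log2 fold change -1.65 to -1.22) and *Pou5f1* (-0.82 to -0.61) passed under all 17 alternatives. Replicates 4 and 5 alone called 5 members lower rather than 2, the others being *Tfap2c*, *Sall4* and *Zbtb16*. That fit called more genes over all, 2360 lower and 2361 higher against 698 and 885. It called 51 list genes rather than 24. For windows, replicates 4 and 5 alone called 1 member window higher rather than 3 (a set chosen for windows after the data were seen). Of all windows they called 487 higher rather than 1673. *Tfap2c* also passed with the replicate sets as a term (-0.85, adjusted p = 0.0471) and without *Dis3* cKO replicate 1 (-1.03, adjusted p = 0.0455). The term called 42 list genes, and over all genes 1669 lower and 1772 higher. Nothing in the labels ties same-numbered libraries together, so the number was not used to pair them in the main fit. Whether same-numbered mice were littermates is not given in the sources used here. The correlations of their deviations were 0.0959, 0.0826, 0.183, 0.182 and 0.135. Libraries of one set with different numbers correlated at 0.102 on average and those of different sets at -0.122, and 3 of 5 libraries of each group were closest to their own number. A block for the replicate number called 2 members lower, 1 lower and 3 higher on the reference scale, and 3 windows higher. It changed no call of a member and called 38 list genes (4 chromatin partners lower, where the fit without it had 0). Over all genes it called 1337 lower and 1489 higher, against 698 and 885 without it. Without one library the list genes called ranged from 18 to 32. The 32 were without control replicate 3, where 806 genes were lower and 1173 higher over all.

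Relative to the reference without *Dazl*, *Mael* and *Rnf17*, 2 members were lower (*Pou5f1*, -0.42, adjusted p = 0.049) and 1 was higher (*Foxo1*). Over all genes that scale called 123 lower and 4918 higher. With *Ddx4* alone 0 members were higher, beside 328 genes. On the scale of the full reference, *Sall4* lost its call without control replicate 4 or 5 or *Dis3* cKO replicate 2 or 3 (0.30 each). Within replicates 1 to 3 on that scale, *Prdm1* lost its call (0.44) and *Zbtb16* gained one (0.28, adjusted p = 0.030). Values whose sign changed were uncalled in both fits. On the TMM scale they were *Sall4* (0.046 in replicates 1 to 3, and -0.15 to 0.016 without one library) and *Foxo1* (-0.072 in replicates 4 and 5). On the reference scale they were *Utf1* (-0.087 without the 3 genes, -0.18 with *Ddx4* alone, -0.28 in replicates 4 and 5, and -0.085 to 0.22 without one library), *Neurog3* (-0.012 without the 3 genes, -0.091 with *Ddx4* alone, and -0.071 to 0.33 without one library) and *Zbtb16* (-0.064 with *Ddx4* alone). The causes were not tested.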
